A study of Homo sapiens with 4 samples.

Results

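The miRNAs described here are 10 mature forms from a pair of related gene clusters, chosen by name out of 1882 names listed in all 4 libraries. Of these, 6 are the 5p and 3p arms of miR-106b, miR-93 and miR-25, which lie together in an intron of MCM7. The other 4 are miR-106a-5p, miR-18b-5p, miR-20b-5p and miR-363-3p of the miR-106a-363 cluster on the X chromosome. Small RNA was sequenced from HT29 and HCT15, which are established lines from human colorectal adenocarcinomas. Parental HT29 cells were grown in DMEM and parental HCT15 cells in RPMI, both with 10% FBS. Spheres of each line, called sphere-derived cancer stem cells by the submitters, were grown in DMEM-F12 to which N2 Plus Supplement, bFGF and EGF (10 ng/ml each) were added, and all media held penicillin-streptomycin. There was 1 library per line and culture, so no difference within a line has a replicate check. In bulk libraries, fewer cells of a kind and less RNA per cell cannot be told apart.

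MicroRNAs are cut from a hairpin precursor whose 5p and 3p arms can each yield a mature RNA. The arm that is loaded into an Argonaute protein as the guide pairs with messenger RNAs mainly through its seed, bases 2 to 8, and the other arm, the passenger, is mostly degraded. The miR-106b-25 and miR-106a-363 clusters are paralogs of miR-17~92, a cluster driven by MYC and E2F factors that represses cell-cycle inhibitors and pro-apoptotic genes such as CDKN1A and BCL2L11. MCM7, the host gene of miR-106b-25, encodes a subunit of the replicative helicase, and the cluster is often abundant in colorectal tumours.

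The 10 members are hsa-miR-106b-5p, hsa-miR-106b-3p, hsa-miR-93-5p, hsa-miR-93-3p, hsa-miR-25-3p, hsa-miR-25-5p, hsa-miR-106a-5p, hsa-miR-18b-5p, hsa-miR-20b-5p and hsa-miR-363-3p, written below without the species prefix. All 10 were found in the RefSeq table of mature sequences (GRCh38.p14). They are shown because their seeds and their likeness to the miR-17~92 miRNAs decide what can be told apart in the counts. Sequences run 5′ to 3′ and capitals mark the seed. The first set shares the seed AAAGUGC:
miR-106b-5p: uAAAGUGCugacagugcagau
miR-93-5p: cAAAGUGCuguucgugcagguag
miR-106a-5p: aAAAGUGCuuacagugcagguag
miR-20b-5p: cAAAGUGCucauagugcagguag
miR-17-5p (chromosome 13): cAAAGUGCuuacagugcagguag
miR-20a-5p (chromosome 13): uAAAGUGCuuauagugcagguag
The second shares AAGGUGC, with 1 base changed in the seed:
miR-18b-5p: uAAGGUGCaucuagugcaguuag
miR-18a-5p (chromosome 13): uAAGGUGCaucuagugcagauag
The third shares AUUGCAC:
miR-25-3p: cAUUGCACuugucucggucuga
miR-363-3p: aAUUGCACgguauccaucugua
miR-92a-3p (chromosome 13): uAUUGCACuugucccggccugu
The remaining 3 members are the opposite arms, whose seeds no other name among the 1575 of 1882 matched to RefSeq holds:
miR-106b-3p: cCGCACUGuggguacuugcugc
miR-93-3p: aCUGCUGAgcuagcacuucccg
miR-25-5p: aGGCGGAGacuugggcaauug

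MIR106B (chromosome 7, 100093993 to 100094074), MIR93 (100093768 to 100093847) and MIR25 (100093560 to 100093643) are on the minus strand in GENCODE 29 (GRCh38), in an intron of all 8 MCM7 transcripts that span them. MIR106A (chromosome X, 134170198 to 134170278), MIR18B (134170041 to 134170111), MIR20B (134169809 to 134169877) and MIR363 (134169378 to 134169452) are also on the minus strand and lie in an exon of the noncoding transcript AC002407.1. MIR19B2 and MIR92A2 lie between MIR20B and MIR363. Their main products, miR-19b-3p and miR-92a-3p, are also made from miR-17~92 and cannot be assigned to a cluster.

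Listed reads came to 5806540 and 12794274 in parental and sphere HT29 cells. The HCT15 values are RPKM and correspond to about 3190021 reads (parental) and 2325439 reads (spheres), so intervals for HCT15 are approximate. Levels are in CPM, reads scaled to a common total of listed miRNA reads and not divided by length, since each read stands for a mature RNA of nearly the same size. The lines' values come in different units, and levels set side by side across lines were not tested. Epithelial miRNAs (the miR-200 family, miR-192, miR-194, miR-215 and miR-375) were all at 10 CPM or more in each library, 9 of 9, and summed to between 23300 and 239000 CPM. Stromal miRNAs summed to at most 20.4 CPM and blood-cell miRNAs to between 36.6 and 386 CPM. The blood-cell sum was mostly miR-142-3p in HT29 (381 and 367 CPM) and miR-486-5p in HCT15 (42.9 and 34.8 CPM), with miR-223-3p at 0 throughout. The endothelial miRNA miR-126-3p was at 132 and 147 CPM in parental and sphere HT29 cells and 12.2 and 8.6 in the HCT15 pair. The muscle miRNA miR-1 was at 165 CPM in parental HT29 cells and 1160 in HT29 spheres, and was listed at 0 in HCT15. The other muscle miRNAs were scarce: in parental and sphere HT29 cells miR-133a was at 0.689 and 2.74 CPM and miR-206 at 0 and 0.391 CPM. Both were listed at 0 in HCT15. Neural miRNAs summed to 1250 and 285 CPM in parental and sphere HT29 cells and to 610 and 321 CPM in the HCT15 pair. Most of each sum was miR-128, at 1240 and 273 CPM in HT29 and 601 and 307 in HCT15, lower in spheres of both. miR-9-5p was at 13.1 and 11.9 CPM in HT29 and at 8.25 and 13.9 CPM in HCT15, higher in spheres there. miR-124-3p was at 0.172 CPM in parental HT29 cells and listed at 0 elsewhere. Whether other cells contributed to the results below was not tested.

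The MCM7-intron cluster took between 0.695% and 2.75% of reads. In HT29 its reads came mostly from miR-106b-5p, miR-93-5p and miR-25-3p, and in HCT15 mostly from miR-25-3p and miR-93-5p. The 6 arms summed to 27481 CPM in parental HT29 cells, 2.75% of reads, and to 15562 CPM in HT29 spheres, 1.56%. Parental HCT15 cells had 9552 CPM, 0.955% of reads, and HCT15 spheres 6947 CPM, 0.695%. The cluster thus took a smaller share of reads in spheres of both lines. After TMM scaling, which sets libraries by the bulk of their miRNAs, the log2 ratio of spheres over parental cells was -0.24 in HT29 (95% interval -0.25 to -0.23, counting error only) and -0.11 in HCT15 (-0.13 to -0.08). Over 6 scalings it ran from -0.82 to -0.01 in HT29 and from -0.46 to 0.15 in HCT15, where the sign was not settled.

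miR-93-5p was the cluster member with the highest level in HT29, where the parental library had 10604 CPM and the sphere library 8987, rank 22 in both. HCT15 had less of it, 2524 CPM in the parental library and 2497 in the sphere library, ranks 47 and 50. Its log2 ratio was 0.34 in both lines after TMM scaling (interval 0.33 to 0.36 in HT29 and 0.29 to 0.39 in HCT15). With total counts the ratios were -0.24 and -0.02, so the direction of miR-93-5p depended on the scaling.

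miR-106b-5p, which has the same seed as miR-93-5p, was at 10417 CPM in parental HT29 cells and 3834 in HT29 spheres. Its HT29 log2 ratio was -0.86 (interval -0.88 to -0.84), and it was below 0 under each of the 6 scalings, from -1.44 to -0.63. Parental HCT15 cells had 252 CPM and HCT15 spheres 224, from about 805 and 521 reads. The HCT15 ratio was 0.18 (0.02 to 0.34) with TMM and -0.17 with total counts. HT29 spheres were thus lower than parental HT29 cells, and no direction was settled in HCT15.

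miR-25-3p, the cluster's miRNA with the seed of miR-92a, was at 5627 CPM in parental HT29 cells and 2213 in HT29 spheres. Parental HCT15 cells had 5657 CPM and HCT15 spheres 3610, and it led the cluster there. The log2 ratio was -0.76 in HT29 (interval -0.79 to -0.74) and -0.30 in HCT15 (-0.33 to -0.26). It was below 0 under each scaling in both lines, although in HCT15 it came as near as -0.04.

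The opposite arms were all scarcer than miR-106b-5p, miR-93-5p and miR-25-3p in HT29, whereas in parental HCT15 cells miR-106b-3p and miR-25-5p were above miR-106b-5p. miR-106b-3p was at 751 and 503 CPM in parental and sphere HT29 cells and at 676 and 459 CPM in the HCT15 pair. It had the most even level of the cluster's arms across the libraries. Its log2 ratios of 0.00 in HT29 and -0.21 in HCT15 each changed sign with the scaling. miR-93-3p was at 74.2 and 23.5 CPM in parental and sphere HT29 cells (431 and 301 reads), a log2 ratio of -1.07 (interval -1.29 to -0.86). In HCT15 it was at 44.5 and 23.7 CPM, a ratio of -0.55 (-1.04 to -0.10). Both ratios stayed below 0 under each scaling. miR-25-5p was at 7.58 and 1.56 CPM in parental and sphere HT29 cells, from 44 and 20 reads, and at 398 and 134 CPM in HCT15. Its ratios were -1.58 in HT29 (-2.54 to -0.90) and -1.22 in HCT15 (-1.41 to -1.04), below 0 under each scaling.

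**Figure D1:**
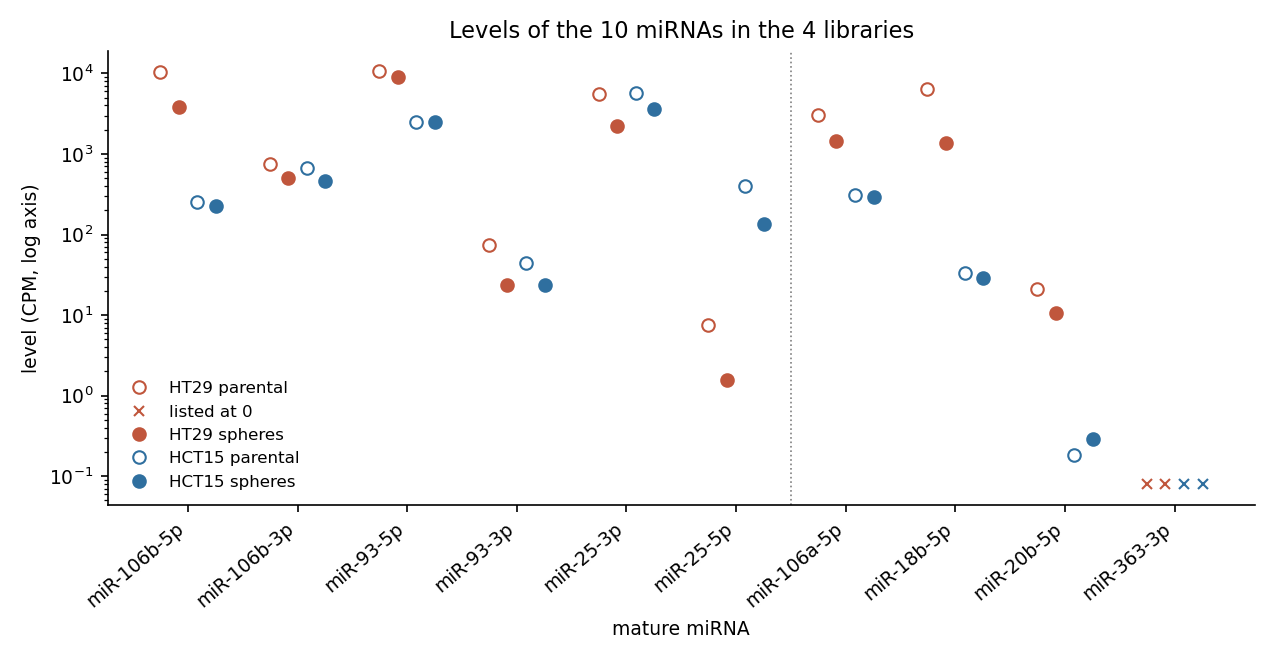
Level of each of the 10 miRNAs in CPM (log axis) in HT29 (red) and HCT15 (blue), with open circles for parental cells and filled circles for spheres, 1 library each; crosses mark miR-363-3p, listed at 0 in all 4 libraries. The dotted line parts the MCM7-intron cluster (left) from the miR-106a-363 cluster (right), and the HCT15 values of miR-20b-5p, 0.185 and 0.290 CPM, lie under the level of 1 read.

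The make-up of the cluster can be compared without any scaling between libraries. In parental HT29 cells miR-106b-5p and miR-93-5p were nearly equal, at 37.9% (interval 37.7 to 38.1) and 38.6% (38.3 to 38.8) of the cluster's reads, and miR-25-3p was at 20.5%. In HT29 spheres miR-93-5p held 57.7% (57.5 to 58.0), miR-106b-5p 24.6% (24.4 to 24.8) and miR-25-3p 14.2%. In HCT15 miR-25-3p was the largest part, at 59.2% (58.7 to 59.8) in parental cells and 52.0% (51.2 to 52.7) in spheres. miR-93-5p was at 26.4% (25.9 to 26.9) and 35.9% (35.2 to 36.7) in those libraries, and miR-106b-5p at 2.64% and 3.22%, below miR-106b-3p at 7.08% and 6.60%. The share of miR-93-5p was higher, and that of miR-25-3p lower, in spheres of both lines. The share of miR-106b-5p was lower in spheres of HT29 and higher in spheres of HCT15. Expressed as reads of miR-106b-5p per read of miR-93-5p, the values were 0.982 and 0.427 in parental and sphere HT29 cells and 0.1 and 0.0897 in the HCT15 pair. For miR-106b-5p, miR-93-5p and miR-25-3p the share's intervals did not overlap between the cultures of a line, but with 1 library per group the spread between cultures is unknown.

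**Figure D2:**
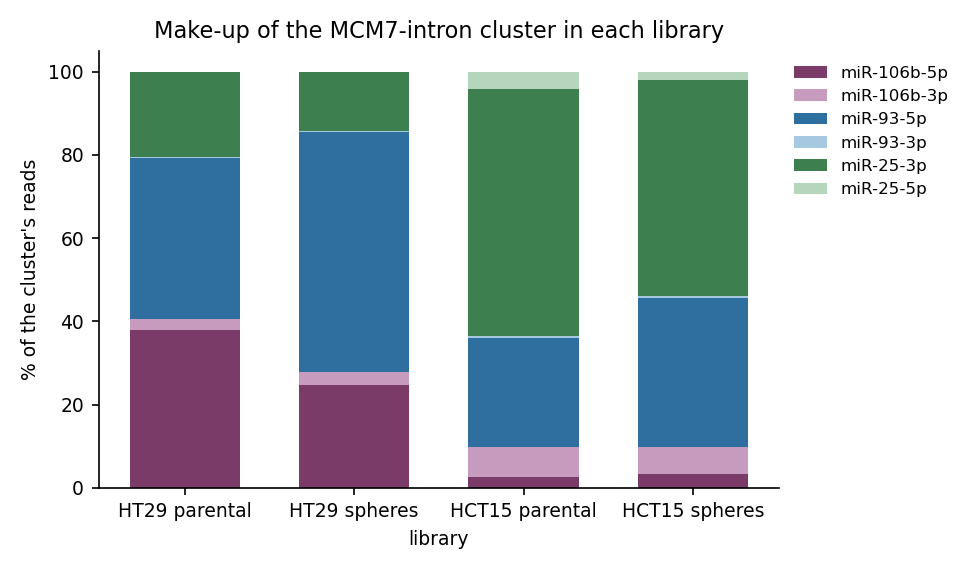
Share of each of the 6 arms in the summed reads of the MCM7-intron cluster (percent, stacked) in each library. miR-93-5p takes 38.6% and 57.7% in parental and sphere HT29 cells, and miR-25-3p takes 59.2% and 52.0% in the HCT15 pair.

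The hairpins of miR-106b and miR-25 are printed to show where the arms lie, with both mature arms in capitals, the 5p arm first.
MIR106B: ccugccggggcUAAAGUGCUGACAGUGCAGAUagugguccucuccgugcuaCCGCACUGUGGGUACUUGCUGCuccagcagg
MIR25: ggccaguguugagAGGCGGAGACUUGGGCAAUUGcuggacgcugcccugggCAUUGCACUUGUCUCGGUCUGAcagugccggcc
The arm with more reads was the 5p arm of miR-93 and the 3p arm of miR-25 in all 4 libraries, whereas for miR-106b it differed between the lines. The 3p share of miR-106b was 6.73% (exact Clopper-Pearson 95% interval 6.53 to 6.92) in parental HT29 cells and 11.6% (11.3 to 11.9) in HT29 spheres. It was 72.8% (71.2 to 74.4) in parental HCT15 cells and 67.2% (64.8 to 69.5) in HCT15 spheres. The arm with more reads differed between the lines, in both cultures, for 3 of 77 hairpins with both arms listed and at least 100 CPM in each library (3.90%): miR-671, miR-106b and miR-335, of which miR-671 and miR-335 are named here after their values were seen. In the smallest gap between any library of one line and any of the other, miR-106b ranked 2 of 77, at 55.6 percentage points. How the reads of each line were trimmed, aligned and counted is not given in the sources used here, and the line and its file type cannot be told apart.

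The 3p share of miR-93 was 0.695% (0.631 to 0.764) in parental HT29 cells and 0.261% (0.232 to 0.292) in HT29 spheres. In HCT15 it was 1.73% (1.46 to 2.04) in parental cells and 0.938% (0.708 to 1.22) in spheres. For miR-25, the 5p share was 0.134% (0.0977 to 0.181) and 0.0706% (0.0431 to 0.109) in parental and sphere HT29 cells, and 6.58% (6.23 to 6.94) and 3.57% (3.19 to 3.98) in the HCT15 pair. The minor arm of both hairpins was thus a smaller part of the reads in spheres of both lines, although the HT29 intervals of miR-25 overlap. As a log2 change of minor over major arm, miR-93 was at -1.42 in HT29 (-1.64 to -1.20) and -0.89 in HCT15 (-1.38 to -0.43). miR-25 was at -0.91 in HT29 (-1.77 to -0.14) and -0.93 in HCT15 (-1.11 to -0.74). A smaller minor arm in spheres was common among hairpins: 65 of 97 in HT29 (67.0%) and 51 of 80 in HCT15 (63.8%), with median changes of -0.46 and -0.26. The minor arm was at least 2-fold lower against the major one for 26 of 97 hairpins in HT29 (26.8%), miR-93 among them, and for 13 of 80 in HCT15 (16.2%), with none of these 3. For miR-106b, the 3p arm was higher against the 5p arm in HT29 spheres (log2 change 0.86, interval 0.80 to 0.92), where 89 of 97 hairpins had a lower value, while in HCT15 spheres the 5p arm, the minor one there, was higher (0.39, 0.19 to 0.58).

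**Figure D3:**
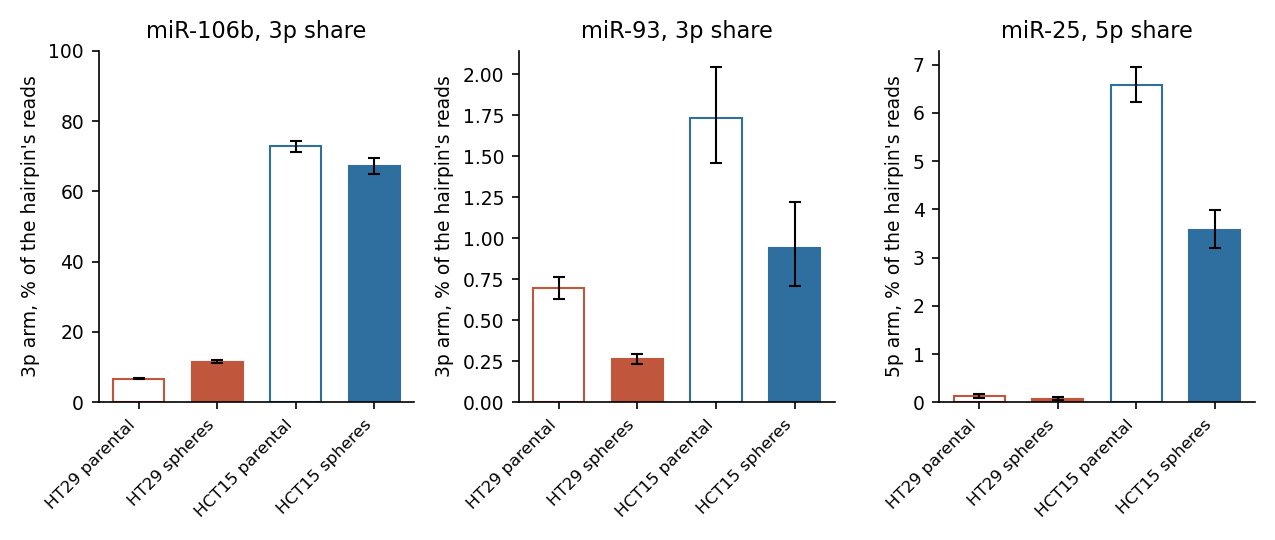
Share of the 3p arm of miR-106b and miR-93 and of the 5p arm of miR-25 in the hairpin's reads (percent, each panel with its own axis from 0) in the 4 libraries, with exact 95% intervals for counting error. miR-106b goes from 6.73% in parental HT29 cells to 72.8% in parental HCT15 cells, while the minor arms of miR-93 and miR-25 are lower in spheres of each line.

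For the miR-106a-363 cluster, reads were listed under 3 of the 4 names. miR-363-3p was at 0 in every library, where a count of 0 allows up to 0.517 and 0.234 CPM in parental and sphere HT29 cells and about 0.940 and 1.29 CPM in the HCT15 pair. miR-18b-5p was at 6380 CPM in parental HT29 cells and 1380 in HT29 spheres, a log2 ratio of -1.63 (interval -1.65 to -1.60), the ratio farthest from 0 among the 8 members past 10 CPM in HT29. It was below 0 under each scaling, from -2.21 to -1.40. In HCT15 it was at 33.5 and 29 CPM, a ratio of 0.14 (-0.32 to 0.60). miR-106a-5p was at 3066 and 1460 CPM in parental and sphere HT29 cells, a ratio of -0.49 (-0.52 to -0.46), and at 311 and 290 CPM in the HCT15 pair, a ratio of 0.25 (0.11 to 0.39) that was below 0 with total counts. miR-20b-5p was at 21 and 10.6 CPM in HT29 (122 and 136 reads; ratio -0.39, interval -0.76 to -0.04). Its HCT15 values, 0.0956 and 0.178 RPKM in parental cells and spheres, were under the 0.162 and 0.263 that stand for 1 read of a miRNA of 22 bases, so no ratio is given.

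The levels of miR-106a-5p and miR-18b-5p cannot be assigned to the X-chromosome cluster with confidence, because each is a near copy of a miR-17~92 miRNA. miR-106a-5p differs from miR-17-5p by A1C alone, and miR-18b-5p differs from miR-18a-5p by U20A alone. Positions are counted from 1 at the 5′ end, with the base of the X-chromosome miRNA first. miR-20b-5p differs from miR-20a-5p by C1U and C10U. For each read of miR-17-5p there were 0.759 and 0.832 reads of miR-106a-5p in parental and sphere HT29 cells, and 0.585 and 0.535 in the HCT15 pair. For each read of miR-18a-5p there were 0.862 and 0.866 reads of miR-18b-5p in parental and sphere HT29 cells, and 0.767 and 0.689 in the HCT15 pair. For each read of miR-20a-5p there were only 0.00209 and 0.00207 reads of miR-20b-5p in HT29, and 0.000409 and 0.000550 in HCT15. Pairs that differ at 1 base had reads of the same order, and the pair that differs at 2 had far fewer for the X-chromosome form. Whether the number of differing bases has a part in this was not tested.

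The opposite arms of the X-chromosome cluster had few reads or none. miR-106a-3p, miR-18b-3p, miR-20b-3p, miR-363-5p and miR-92a-2-5p were listed at 0 in all 4 libraries. miR-19b-2-5p had 10 and 3 reads in parental and sphere HT29 cells, 0.0809 RPKM in parental HCT15 cells and 0 in HCT15 spheres. The miR-17~92 hairpins did yield both arms: the 3p share was 10.1% and 14.8% for miR-17 and 0.929% and 1.80% for miR-18a in parental and sphere HT29 cells. In the HCT15 pair it was 26.4% and 21.6% for miR-17 and 68.1% and 35.0% for miR-18a. The 3p arm of miR-18a thus had more reads than its 5p arm in parental HCT15 cells, but not in HCT15 spheres. For miR-106a in parental and sphere HT29 cells, 0 reads of the 3p arm beside 17805 and 18674 of the 5p arm allow a 3p share of up to 0.0168% and 0.0161%. For miR-18b the limits were 0.00810% and 0.0170%, under the shares of miR-18a. The rule by which reads that match a pair of miRNAs were assigned is not given in the sources used here. Its part in the levels of miR-106a-5p and miR-18b-5p was not tested.

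**Figure D4:**
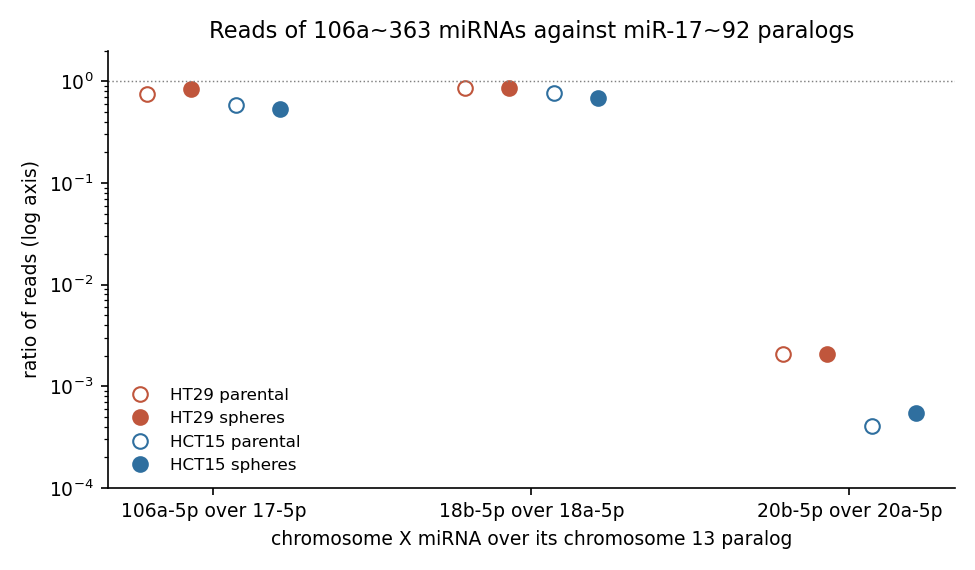
Reads of miR-106a-5p, miR-18b-5p and miR-20b-5p per read of their closest miR-17~92 miRNA (log axis) in HT29 (red) and HCT15 (blue), open for parental cells and filled for spheres. The first 2 pairs lie between 0.535 and 0.866, and the miR-20b-5p pair lies at or below 0.00209.

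Sphere ratios of the near copies lay close to those of their partners. miR-17-5p had log2 ratios of -0.62 in HT29 and 0.38 in HCT15, beside -0.49 and 0.25 for miR-106a-5p. miR-18a-5p had -1.63 and 0.29, beside -1.63 and 0.14 for miR-18b-5p. Close ratios were not limited to pairs that differ at 1 base: in HT29, miR-20a-5p and miR-20b-5p were both at -0.39, the latter from 122 and 136 reads. Summing pairs that differ at 1 base gave -0.56 and 0.33 for miR-106a-5p with miR-17-5p, and -1.63 and 0.23 for miR-18b-5p with miR-18a-5p.

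Counted over the 10 miRNAs, 8 averaged 10 CPM or more in HT29, without miR-25-5p and miR-363-3p. Of these, 2 were at least 2-fold lower in HT29 spheres, miR-93-3p and miR-18b-5p, and 0 were at least 2-fold higher, where 18.5% and 12.5% of the 351 miRNAs at that level were lower and higher by that much. Their median log2 ratio was -0.63, against -0.06 over the 351. In HCT15, 8 reached the level, without miR-20b-5p and miR-363-3p. There 1, miR-25-5p, was at least 2-fold lower and 0 were at least 2-fold higher, where 5.86% and 8.95% of 324 miRNAs were. The HCT15 median was -0.03, against 0.05 over the 324. The number of lower members in HT29 depended on the scaling, from 5 (total counts) to 1 (upper quartile), where 35.9% and 14.2% of the 351 miRNAs were lower by that much.

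**Figure D5:**
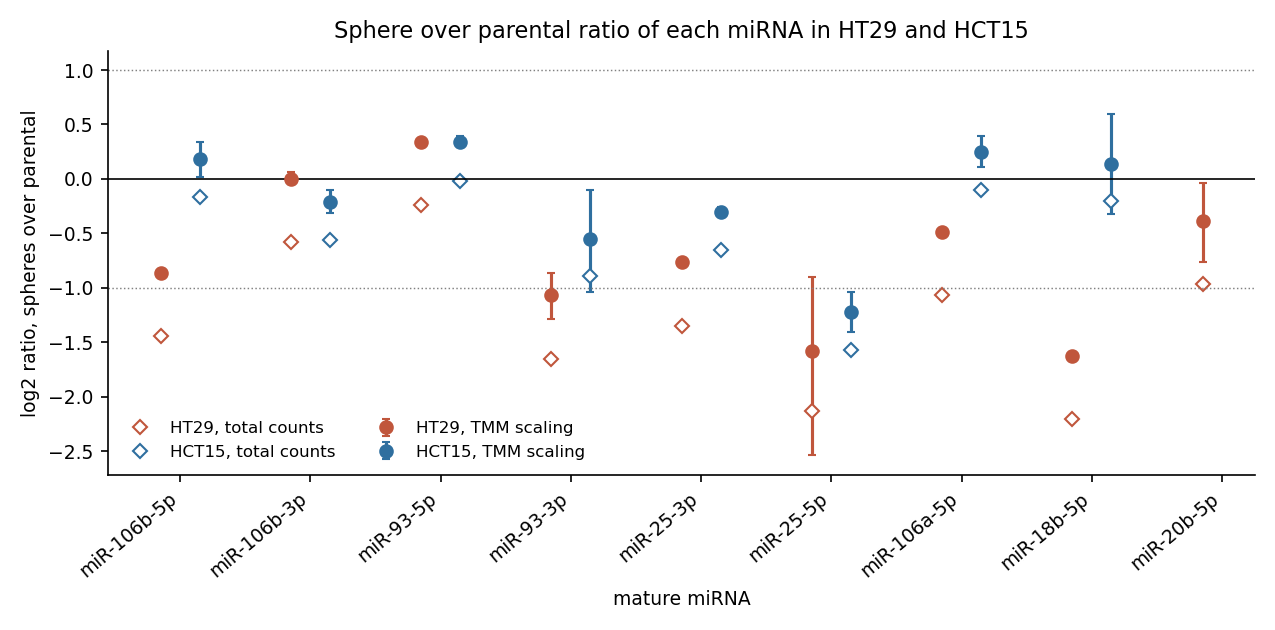
Log2 ratio of spheres over parental cells for 9 miRNAs in HT29 (red) and HCT15 (blue), as filled circles with 95% counting intervals after TMM scaling and as open diamonds with total counts; dotted lines mark 2-fold. miR-25-5p, miR-93-3p and miR-25-3p lie below 0 in both lines with either scaling, miR-18b-5p lies at -1.63 in HT29 and 0.14 in HCT15, and miR-363-3p and the HCT15 value of miR-20b-5p are left out for want of reads.

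Spheres were also compared with parental cells over both lines, with the 2 lines as the only replicates. Of the 10 miRNAs, 9 reached 10 CPM in 2 or more libraries and entered the test. With limma and a term for the line, none of them was called after Benjamini-Hochberg adjustment over all 377 miRNAs tested, and 0 of the 377 were called (0%). At an unadjusted threshold of 0.05, limma had 21 of the 377. By the quasi-likelihood test of edgeR the numbers were the same, 0 and 21. DESeq2 called 5 miRNAs and limma-voom 3, with no member among them. miR-25-5p came nearest, with a limma log2 fold change of -1.25 (SE 0.39, adjusted p = 0.752), lower in both lines and the one member past the unadjusted threshold. It entered the test through HCT15 alone, since HT29 had 7.58 and 1.56 CPM in parental cells and spheres. With a pseudocount of 5 CPM no member passed the unadjusted threshold, where 22 of the 377 did. With total counts miR-93-3p passed beside miR-25-5p, where 39 of the 377 did. For miR-93-5p the limma fold change was 0.34 (SE 0.31, adjusted p = 0.774), and for miR-25-3p -0.53 (SE 0.34, adjusted p = 0.760). miR-106b-5p was at -0.34 (SE 0.46, adjusted p = 0.834) in limma, and miR-18b-5p at -0.74 (SE 0.61, adjusted p = 0.760). The other 4 members tested had adjusted p-values from 0.757 (miR-93-3p, limma) to 0.962; among them miR-20b-5p entered the test through HT29 alone.

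Beside the relatives of the same seeds, the members made up most of the AAAGUGC family and less of the others. miRNAs with the seed AAAGUGC summed to 38211 CPM in parental HT29 cells and 21177 in spheres, of which members gave 63.1% and 67.5%. In HCT15 the sums were 4071 and 4081 CPM, with 75.8% and 73.8% from members, mostly miR-93-5p. miRNAs with the seed AUUGCAC summed to 17303 and 8530 CPM in parental and sphere HT29 cells and to 69252 and 48147 CPM in the HCT15 pair. Members gave 32.5% and 25.9% of these in HT29 and 8.17% and 7.50% in HCT15, where most came from its relatives: miR-92a-3p was at 53836 CPM and miR-92b-3p at 9745 CPM in parental HCT15 cells. Of the 6 guide arms of miR-17~92, 3 were at least 2-fold lower in HT29 spheres (miR-18a-5p, miR-19a-3p and miR-19b-3p) and 0 in HCT15 spheres, with medians of -1.13 and 0.44. Over all miRNAs at 10 CPM or more, 18.5% in HT29 and 5.86% in HCT15 were lower by that much. Of 12 other relatives by seed, 4 reached 10 CPM in each line. Among these, miR-373-3p (seed AAGUGCU, offset by 1 base from AAAGUGC) and miR-372 were at least 2-fold higher in HT29 spheres, with ratios of 2.67 and 1.37, and none differed by that much in HCT15. Over all 351 miRNAs in HT29, 12.5% were higher by that much. In parental and sphere HT29 cells miR-373-3p was at 14.5 and 62.3 CPM, and miR-372 at 22.7 and 39.4 CPM. In the HCT15 pair miR-373-3p was at 34874 and 23606 CPM, and miR-372 at 27392 and 20657 CPM. Both were named after their values were seen.

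The miRNAs whose levels over the 4 libraries were most like those of miR-106b-5p, miR-93-5p and miR-25-3p lay elsewhere in the genome. Likeness was the root mean square difference of centred log2 levels, over 239 miRNAs that averaged 50 CPM or more. For miR-106b-5p the nearest were miR-30b-5p (0.07), miR-32-5p (0.13) and miR-935 (0.21), with a median of 2.17 over all 239. For miR-93-5p they were miR-200a-3p (0.12), let-7b-5p (0.15) and miR-107 (0.18), with a median of 1.25. For miR-25-3p they were miR-500a-3p (0.24), miR-151a-5p (0.26) and miR-10a-3p (0.26), with a median of 1.30. Arms of the shared MCM7 transcript varied in likeness. miR-106b-3p was at 0.37 from miR-25-3p, rank 8 of 239, while the distances were 1.45 between miR-106b-5p and miR-93-5p, 1.24 between miR-93-5p and miR-25-3p, and 2.55 between miR-106b-5p and miR-25-3p. miR-20a-5p, on another chromosome, was at 0.48 from miR-106b-5p. Most of this measure is the gap between the lines, whose files differ in unit.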

How the data were processed

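The labels' protocols name a TruSeq small RNA kit and total RNA as input. The authors deposited HT29 as raw read counts per mature miRNA and HCT15 as RPKM, per the file headers, with names from miRBase R19. Per the submitters' processing notes the build was hg19, and no hg19 position was used. The HCT15 RPKM values step by about 1 read, worth 0.162 in parental cells and 0.263 in spheres for a miRNA of 22 bases, and 0.157 to 0.164 over 20 to 23 bases in parental cells. With a step for each length, 64.9% and 59.0% of low values were whole within 0.02 reads, and 39 of 499 and 10 of 195 lay under 1 read, so reads are approximate. The commonest low value in spheres was taken as 2 reads. A count test was an alternative only. CPM used the sum of listed values.

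Within a line, log2 ratios used TMM scaling over 4 libraries and a prior count of 2, with exact conditional binomial 95% intervals. Across lines, limma 3.58.1 (R 4.3.3) was fitted with a variance trend on log2(TMM-scaled CPM + 1) with a term for the line, on miRNAs that reached 10 CPM in 2 libraries, with 1 residual degree of freedom. This scale understates the fold changes of scarce miRNAs. P-values rest on how far the sphere effect differed between the 2 lines, since nothing says that cultures were repeated. That spread was pooled with a prior taken from all miRNAs tested, with a median of 2.89 degrees of freedom. edgeR 4.0.16, DESeq2 1.42.0, other scalings, pseudocounts and filters were alternatives. Arm changes between cultures added 0.5 reads per arm and used hairpins at 100 CPM or more with 10 reads of the minor arm. Without molecular identifiers, intervals and the limit of 3 reads for a 0 cover counting error only. Scripts were tested on simulated data. All 10 members were named, with their paralogs, up to 4 relatives per seed, and the 3 most alike miRNAs for each of miR-106b-5p, miR-93-5p and miR-25-3p. Members and lists were chosen with earlier results of these data known, and the arm counts over all hairpins were added after the values were seen. Which aligner and trimming were used, and how reads matching more than 1 miRNA were counted, is not given in the sources used here.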

Additional observations from a re-analysis of the deposited data

Results flagged for a closer look

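The following 3 results went in opposite directions in the lines, with counting intervals that exclude 0 in both; with 1 library per group, none of these differences between lines was tested. The log2 ratio of spheres over parental cells was -0.86 in HT29 and 0.18 in HCT15 for miR-106b-5p. For miR-106a-5p it was -0.49 and 0.25. Both HCT15 values turned negative with total counts, at -0.17 and -0.10. The reads of miR-106a-5p cannot be set apart from those of miR-17-5p with confidence. Of the 6 guide arms of miR-17~92, 6 were below 0 in HT29, and 5 were above 0 and 1 below 0 in HCT15. Over all miRNAs at 10 CPM or more, 184 of 351 were below 0 in HT29 and 171 of 324 above 0 in HCT15. In HT29 and HCT15, miR-17-5p was at -0.62 and 0.38, and miR-20a-5p at -0.39 and 0.57. These kept their signs under each scaling. How many of all miRNAs went in opposite directions was not counted. The log2 change of the 3p over the 5p arm of miR-106b, which needs no scaling, was 0.86 in HT29 spheres and -0.39 in HCT15 spheres. It was not alone in this: for miR-17, a hairpin of the paralog cluster miR-17~92, the same change was 0.63 and -0.38.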

How the results depend on the processing

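The fit across lines compared the cultures within each line, and the labels give no replicate numbers for a further block. In that fit 0 of 9 members passed under each of the 10 alternatives, in which 0 to 7 of all miRNAs passed. The number of members at least 2-fold lower in HT29 spheres, 2 as reported, was 5 with total counts, 4 without the 10 most abundant miRNAs, and 1 each with the upper quartile, with TMM on the line alone and with a level minimum of 50 CPM. In HCT15 the number was 1, where 5.86% of all 324 miRNAs were lower by that much with TMM and 15.7% with total counts. With the upper quartile it was 0, against 2.78%. The members' median log2 ratio in HT29, -0.63, was -1.21 with total counts, -0.91 without the 10 most abundant, -0.40 with the upper quartile and -0.44 with TMM on the line alone. The median over all 351 miRNAs was -0.64, -0.34, 0.16 and 0.12 in that order. In HCT15 the members' median, -0.03, was -0.38 with total counts, 0.17 with DESeq2 size factors, 0.22 with the upper quartile, 0.14 with no level minimum and 0.18 with paralogs summed. The median over all 324 miRNAs was -0.30 with total counts, 0.25 with DESeq2 size factors and 0.30 with the upper quartile. With total counts, abundant miRNAs shift by -0.58 (HT29) and -0.35 (HCT15) on the log2 scale, and scarce ones by less. Across lines, the log2 fold change turned to -0.13 for miR-93-5p with total counts, to 0.01 for miR-106b-3p with DESeq2 size factors and to 0.13 for miR-20b-5p with DESeq2; the cause was not tested. Leaving out 1 line gave ranges of -0.86 to 0.18 for miR-106b-5p, -0.21 to 0.00 for miR-106b-3p, -0.49 to 0.25 for miR-106a-5p, -1.63 to 0.14 for miR-18b-5p and -0.37 to 0.20 for miR-20b-5p, whose upper end rests on HCT15 values under 1 read and is no usable ratio. Of the summed reads of miR-106b-5p, miR-93-5p and miR-25-3p alone, in the order parental HT29, HT29 spheres, parental HCT15 and HCT15 spheres, miR-106b-5p held 39.1%, 25.5%, 2.99% and 3.54%, miR-93-5p 39.8%, 59.8%, 29.9% and 39.4%, and miR-25-3p 21.1%, 14.7%, 67.1% and 57.0%. A length-specific read value for HCT15, chosen after seeing the data, left the member counts and arm shares within their intervals.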
